A study of Mus musculus with 6 samples.

Results

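Apolipoproteins are the protein parts of lipoprotein particles, and 9 mouse genes that encode them or are named with them were followed here in RNA from circulating red cells: Apoa1, Apoa2, Apoa4, Apob, Apoc1, Apoc3, Apoc4, Apoe and Apoh. They were taken by symbol and all 9 were found among the 27179 genes of the deposited count files. The set was chosen by values already known from these same libraries, the difference between the genotypes, so that difference is given as a description without a test. The libraries came from erythrocytes of 3 male mice heterozygous for the C587R allele of Nxf1 (Nxf1+/C587R) and of 3 wild-type littermates (Nxf1+/+), all on a BalB/c background, with 1 animal per library and 1 library of each genotype in each of 3 batches. The Nxf1 protein carries messenger RNA out of the nucleus through the nuclear pore. The labels give no treatment and no age, and the heterozygous mice keep 1 wild-type copy of Nxf1 in every cell.

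Lipoproteins carry triglyceride and cholesterol through the blood. Large particles rich in triglyceride are built around apolipoprotein B in the liver and the intestine, and high-density lipoprotein (HDL) is built around apolipoproteins A-I and A-II. The small C apolipoproteins move between particles and tune lipases and uptake, and apolipoprotein E is a ligand for receptors of the LDL receptor family. In mice most of these genes are transcribed mainly in hepatocytes, and Apoa1, Apoa4 and Apob in enterocytes too. Apoe is also transcribed by macrophages, astrocytes and other cells. Mature red cells have no nucleus and no known role in making lipoproteins.

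The libraries held 14636739 to 15790336 counts, where a count is 1 read assigned to a gene. Globin genes took 88.1% to 89.3% of them and all 8 matched erythroid markers were seen, which fits the labelled cell type. Transcripts known from other cells were present too. The 20 hepatocyte markers summed to 1362, 3112 and 1770 counts in mutant libraries 1, 2 and 3, against 106, 3 and 3 in wild-type libraries 1, 2 and 3. Wild-type library 1 stood apart from the other wild-type libraries, with 90 of its 106 hepatocyte counts from Ttr and 13 from Rbp4, and with 316 counts of 9 exocrine pancreas markers that had 0 to 2 counts in each of the other libraries. Nxf1 itself had 9, 7 and 11 counts in mutant libraries, against 15, 10 and 20 in wild type. Its log2 fold change was −0.21 (SE 0.38, edgeR adjusted p = 0.850), and the counts do not show which allele was read.

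All 9 apolipoprotein genes had more counts in every mutant library than in any wild-type library, as did 2.87% of the 16396 genes with a count in some library. The choice of the 9 genes fixed this too. For 8 of them wild type had no count at all. The 3 mutant libraries held 2821 counts of the 9 genes together, 1718 of them from the 8 genes other than Apoe, and the 3 wild-type libraries held 67, all from Apoe. Across the whole table of 2823 tested genes, 5.99% were called higher in the mutants and 1.06% lower (edgeR quasi-likelihood test, Benjamini-Hochberg adjusted p below 0.05). Of the 8 apolipoprotein genes with enough counts to be tested, 7 were higher and 0 lower by the same rule, a count that the choice of the genes fixed and from which nothing is read. Apoa2 was not called and Apoa4 had too few counts to be tested. The median log2 difference of the 8 tested genes, with those at 0 in wild type entered at the lower bound described below, was 5.80, beside −0.06 for all genes tested. In these bulk samples, fewer cells of a type and less RNA per cell cannot be told apart.

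**Figure D1:**
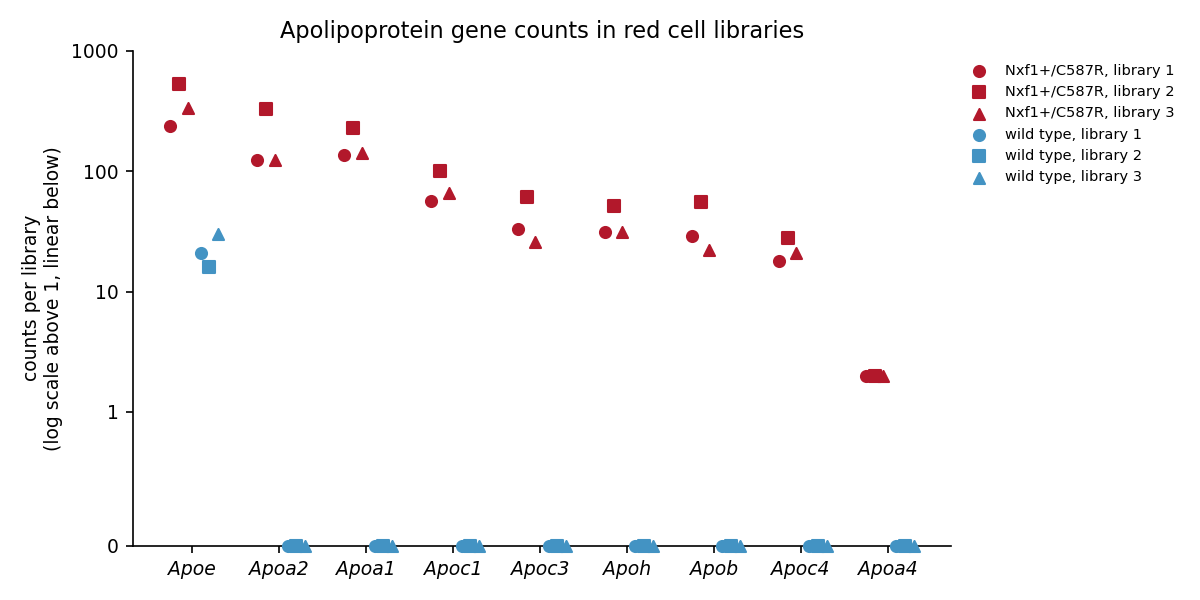
Counts of the 9 apolipoprotein genes in each library, on an axis that is logarithmic above 1 and linear below. Red symbols are the 3 Nxf1+/C587R libraries and blue symbols the 3 wild-type libraries, with 1 symbol shape per library number. The 3 mutant symbols of Apoe stand at 237, 533 and 333, above its wild-type symbols at 21, 16 and 30, and every other gene is at 0 in wild type.

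The genes for HDL proteins had the most counts among the 8 genes with none in wild type. Apoa1 encodes the main protein of HDL and activates the enzyme that esterifies its cholesterol, and it lies at chr9:46228630-46230469 (mm10, Entrez gene 11806). It had 135, 229 and 141 counts in mutant libraries 1, 2 and 3, against 0, 0 and 0 in wild type. Apoa2 encodes the second HDL protein and lies at chr1:171221564-171226379. It had 124, 331 and 124 counts in the mutants, against 0 in each wild-type library. Mutant library 2 was the highest for both genes, and the genotypes did not overlap for either. A wild-type count of 0 over the group allows up to 3 counts, which makes Apoa1 at least 241-fold higher and Apoa2 at least 276-fold higher in the mutants with TMM-scaled library totals, and at least 172-fold and 197-fold higher with unscaled totals. Fitted fold changes of such genes depend on a small count that the model adds and are not bounds. For Apoa2 the fitted log2 value was 10.93 with an SE of 1.54, the largest SE among the 8 genes tested.

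Apoa4, which encodes an apolipoprotein of chylomicrons and HDL made in the intestine and in mouse liver, was the least seen. It lies beyond Apoc3 in the Apoa1 cluster (chr9:46240844-46243458) and had 2 counts in each mutant library, against 0 in each wild-type library. With 6 counts in all it was at least 2.86-fold higher by the same bound (2.04-fold with unscaled totals). In the GENCODE M21 annotation it overlaps the antisense genes Gm10680 and Gm47528, and 60.9% of the 50-base windows of its transcripts also lie in those genes. The strand setting of the counting is not given in the sources used here, so these few reads cannot be assigned to Apoa4 alone.

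Apob encodes the structural protein of chylomicrons, VLDL and LDL, of which each particle carries a single copy. It lies at chr12:7977629-8016839 and had 29, 55 and 22 counts in the mutants, against 0 in each wild-type library, or at least 50.6-fold higher (36.1-fold with unscaled totals). Its transcript is by far the longest of the set, with a deposited gene length of 13909 bases, against 464 to 1666 for the others. Its counts therefore stand for few transcripts once length is taken into account.

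The C apolipoproteins are small proteins on triglyceride-rich particles and HDL. Apoc1 (chr7:19689480-19692659), which slows the uptake of remnant particles, had 56, 100 and 66 counts in the mutants, against 0 in each wild-type library, and was at least 106-fold higher (75.5-fold with unscaled totals). Apoc3 (chr9:46233050-46235636), which inhibits lipoprotein lipase and the uptake of remnants, had 33, 61 and 26 counts, against 0, and was at least 57.3-fold higher (40.8-fold). Apoc4 (chr7:19678084-19681460), a minor protein of VLDL, had 18, 28 and 21 counts, against 0, and was at least 32.0-fold higher (22.8-fold). All 3 were seen in every mutant library and in no wild-type library. Apoc4 shares its strand and most of its span with the annotated gene Gm44805, and 8.64% of its 50-base transcript windows occur in other genes. The windows of the 7 genes other than Apoa4 and Apoc4 occurred in no other annotated gene.

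Apoh encodes beta-2-glycoprotein I, a plasma protein that binds phospholipid surfaces and is the main antigen of antiphospholipid antibodies. It lies at chr11:108395297-108414396 and had 31, 51 and 31 counts in the mutants, against 0 in each wild-type library, or at least 53.9-fold higher (38.5-fold with unscaled totals). The GENCODE gene overlaps the end of Prkca on the opposite strand by 575 bases.

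Apoe was the only one of the 9 genes with counts in wild type. It encodes apolipoprotein E, the receptor ligand that clears remnant particles, and lies at chr7:19696244-19701310 (Entrez gene 11816). It had 237, 533 and 333 counts in the mutants, against 21, 16 and 30 in wild type. In CPM, which puts libraries on 1 common total by TMM factors, Apoe stood at 29.3 ± 13.4 CPM in the mutants and 1.21 ± 0.299 CPM in wild type (SD, n = 3 each). The lowest mutant library had 237 counts and the highest wild-type library 30. The ratio of the summed counts over scaled totals was 23.6 (95% interval 18.4 to 30.6, counting error only), and over unscaled totals it was 16.8 (13.1 to 21.8). The fitted log2 fold change was 4.58 (SE 0.34) with TMM and 4.07 with unscaled totals, under which the median over all tested genes was −0.53. With unscaled totals 4.07% of all tested genes were called higher, and the 8 tested apolipoprotein genes were among them, Apoa2 included.

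Macrophages are a known source of Apoe, and their markers were few in both genotypes. The 12 macrophage markers summed to 56, 39 and 78 counts in mutant libraries 1, 2 and 3, against 71, 35 and 56 in wild type, and 10 of the 12 had any count. With TMM scaling the sums were 3.28 to 5.13 CPM in the mutants and 2.14 to 3.73 CPM in wild type, so the genotypes overlapped on both scales. Csf1r, the receptor of the macrophage growth factor, had the most counts of the list, with 27, 14 and 47 counts in mutant libraries, against 53, 25 and 37 in wild-type libraries (log2 fold change 0.11, SE 0.34, edgeR adjusted p = 0.910). Adgre1, next by counts, had 9, 3 and 4 counts in the mutants, against 5, 5 and 8 in wild type. Cd68 had 4, 5 and 5 counts in the mutants, against 7, 5 and 4 in wild type. The genotypes overlapped for Csf1r, Adgre1, Cd68, C1qa, Timd4 and Mertk. C1qb and Marco had 0 counts in every library. Clec4f and Vsig4, known from liver macrophages and named after their values were seen, had 0, 3 and 4 and 1, 2 and 4 counts in the mutants, against 0 in every wild-type library. Cd5l and C1qc, also named after their values were seen, had 4, 2 and 5 and 3, 2 and 3 counts in the mutants. In wild type each had 0, 0 and 1, too few to be tested. Every mutant library was above every wild-type library for both, as for 2.87% of the 16396 genes with a count. The part of macrophages in the Apoe counts of either genotype was not tested.

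Start regions are shown for 4 genes, Apoa1, Apoa2 and Apoh, which wild type lacked, and Apoe, which wild type also held. Apoa4, Apob and Apoc4 also had annotated start regions and no counts in wild type, but theirs are not printed. The RefSeq promoter table (GRCm38.p6) held 10 windows for 7 of the 9 genes, each from 250 bases before to 50 after an annotated start. The 250 bases before the start are given from 5′ to 3′ on the strand of the gene, at chr9:46228380-46228629 (plus strand) for Apoa1, chr1:171224804-171225053 (plus strand) for Apoa2, chr11:108395047-108395296 (plus strand) for Apoh and chr7:19699189-19699438 (minus strand) for Apoe. Capitals mark matches, on either strand, to any of 4 motifs. The forkhead-type motif was searched in the form TGTTTGC and also in a second form with another base near its end, TGTTTAC. The TATA box was searched in its common form as TATAAA, and the GC box in its short form as GGGCGG.
Apoa1: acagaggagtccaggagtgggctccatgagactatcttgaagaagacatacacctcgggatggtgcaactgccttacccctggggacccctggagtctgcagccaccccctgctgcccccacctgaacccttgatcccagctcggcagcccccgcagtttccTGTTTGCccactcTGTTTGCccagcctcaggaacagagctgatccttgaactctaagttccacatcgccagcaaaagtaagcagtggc
Apoa2: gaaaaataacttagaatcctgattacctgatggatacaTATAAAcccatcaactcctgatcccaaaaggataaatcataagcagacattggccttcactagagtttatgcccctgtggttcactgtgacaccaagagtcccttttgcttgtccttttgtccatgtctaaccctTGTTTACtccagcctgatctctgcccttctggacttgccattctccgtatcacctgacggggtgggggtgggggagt
Apoh: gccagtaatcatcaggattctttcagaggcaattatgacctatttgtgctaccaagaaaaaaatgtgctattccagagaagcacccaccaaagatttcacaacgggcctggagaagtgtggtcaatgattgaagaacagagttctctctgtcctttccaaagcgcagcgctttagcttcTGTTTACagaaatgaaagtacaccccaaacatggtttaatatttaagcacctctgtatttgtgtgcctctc
Apoe: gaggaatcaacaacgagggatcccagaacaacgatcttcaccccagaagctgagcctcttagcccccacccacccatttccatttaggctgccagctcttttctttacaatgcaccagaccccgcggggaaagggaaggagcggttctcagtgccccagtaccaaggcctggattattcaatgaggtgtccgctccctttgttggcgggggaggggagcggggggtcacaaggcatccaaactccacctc
Apoa1 held TGTTTGC at 88 and at 75 bases before the start. Apoa2 held TGTTTAC at 77 bases and TATAAA at 212 bases before it, and Apoh held TGTTTAC at 71 bases before it. The other annotated Apoa2 start, at the left end of the gene, and the single Apoa4 start had none of the 4 motifs in their windows. The Apoe window shown held none of the 4 motifs, while another annotated Apoe start had TATAAA at 96 bases before it on the strand of the gene, at 100 bases on the other strand, and the remaining one had TGTTTAC at 5 bases before it on the other strand. Apob had TGTTTGC on the other strand 121 bases and TATAAA 60 bases before its start, and Apoc4 had GGGCGG at 130 bases before its start. Of 32851 mouse promoter windows of the same length, 5.07% held the first forkhead form, 3.65% the second form, 8.48% either of these, 13.6% the TATA box and 35.7% the GC box. The motifs do not overlap each other in the windows shown. These matches are descriptions of the letters and show no binding. The Apoe window shown was the only Apoe window without a match, and the windows printed do not stand for all 10. No contrast between Apoe and the other genes is read from them.

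Within a library, the shares of the 9 genes do not depend on scaling between libraries. Apoe made up 39.2% ± 3.98 of the counts of the 9 genes in the mutants (SD, n = 3), and the other 8 genes 60.8% ± 3.98. In wild type the other 8 genes had 0 of 67 counts, which allows a share of up to 4.48%. Per kilobase of gene length the order of the mutant levels was Apoa2, Apoe, Apoa1, Apoc1, Apoc3, Apoc4, Apoh, Apob and Apoa4. Apoa2 took 31.2% ± 5.47 of the summed counts per kilobase, Apoe 26.2% ± 3.21, Apoa1 15.6% ± 1.79 and Apoc1 12.5% ± 1.46. The remaining 5 genes took from 6.75% (Apoc3) down to 0.118% (Apoa4), with Apob at 0.223%. Each neighbouring pair kept this order in 3 of 3 mutant libraries, except that Apoa2 exceeded Apoe in 2 of 3. Across libraries the ranges of counts per kilobase overlapped for all neighbours other than Apoh against Apob and Apob against Apoa4.

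**Figure D2:**
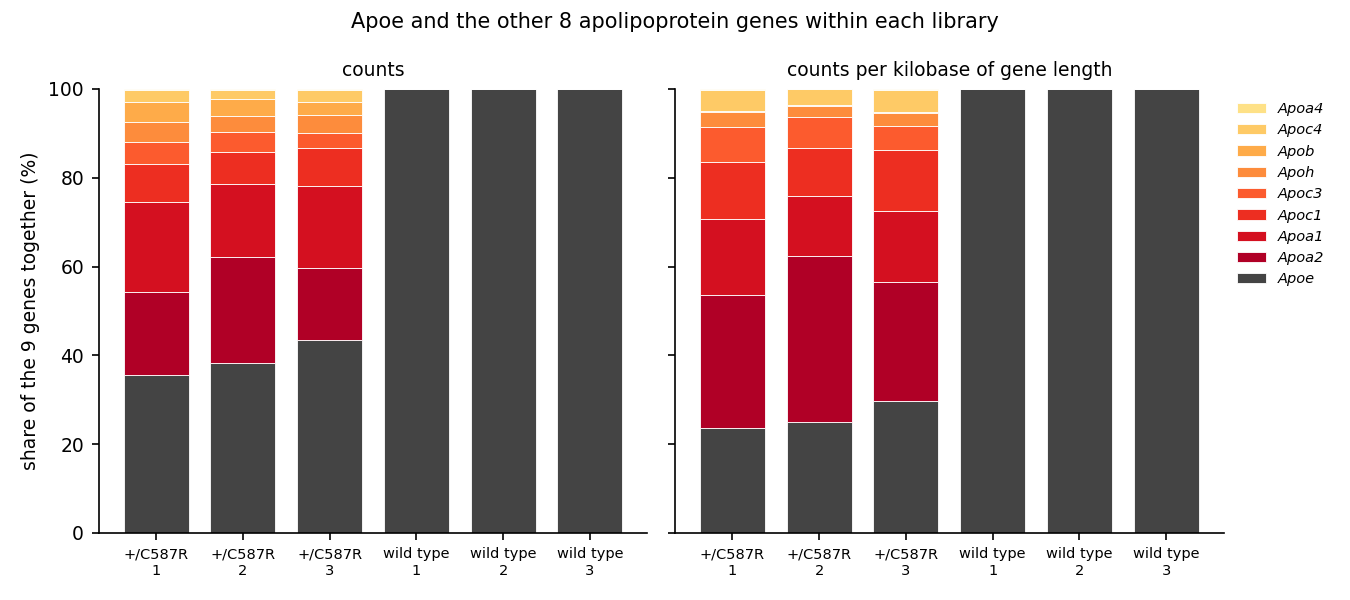
Share of each of the 9 genes in their summed counts (left) and in their summed counts per kilobase of gene length (right), in percent, with 1 bar per library and the 3 Nxf1+/C587R libraries left of the 3 wild-type libraries. Apoe (dark grey) fills the wild-type bars and makes up 39.2% of counts and 26.2% of counts per kilobase in the mutants on average.

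Each apolipoprotein gene was also set against serum albumin (Alb), the hepatocyte marker with the most counts here, within the mutant libraries. Alb had 490, 1136 and 800 counts in mutant libraries 1, 2 and 3, against 0, 1 and 0 in wild type. Apoe stood at 484, 469 and 416 counts per 1000 Alb counts, a mean of 456 ± 35.5 (SD, n = 3), and its highest library exceeded its lowest 1.16-fold. The other 8 genes together stood at 873, 754 and 541 per 1000 Alb counts, a mean of 723 ± 168 and a 1.61-fold range. Apoe thus had the narrowest range of the 9 genes against Alb. The ranges of the others ran from 1.39-fold for Apoc1 and 1.49-fold for Apoc4 to 2.07-fold for Apoc3, 2.15-fold for Apob and 2.32-fold for Apoa4, which rested on 2 counts per library. Against the whole hepatocyte list, Apoe stood at 178 ± 9.05 and the other 8 genes at 278 ± 34.9 per 1000 counts. In wild type 67 Apoe counts stood beside 1 Alb count, and in the mutants 1103 Apoe counts beside 2426 Alb counts.

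Mutant library 2 held the most counts of 8 of the 9 genes and of Alb. Relative to the mean of libraries 1 and 3, Alb was 1.76-fold higher there (95% interval 1.62 to 1.91, counting error only). Apoe was 1.87-fold higher (1.66 to 2.11), Apoa1 1.66-fold (1.39 to 1.98) and Apoc1 1.64-fold (1.25 to 2.15), all with intervals that overlap that of Alb. Apoa2 was 2.67-fold higher (2.26 to 3.16), and its interval lies above that of Alb. Apob was 2.16-fold higher (1.45 to 3.22) and Apoc3 2.07-fold (1.42 to 3.01), with intervals that overlap those of both Alb and Apoa2.

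**Figure D3:**
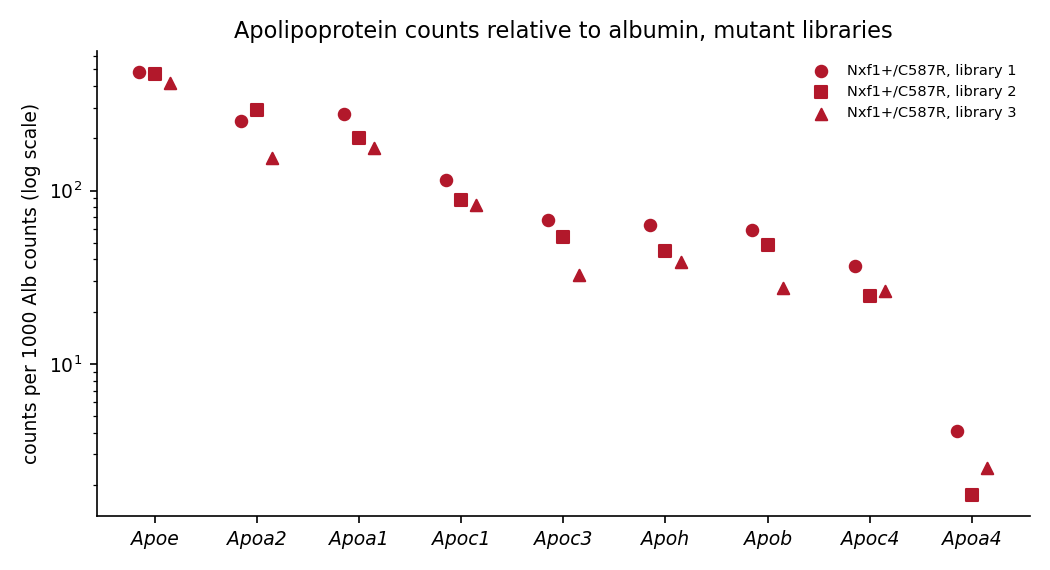
Counts of each apolipoprotein gene per 1000 Alb counts of the same library, on a log axis, in the 3 Nxf1+/C587R libraries (circle, square and triangle for libraries 1, 2 and 3). The Apoe symbols lie between 416 and 484, while Apoa2 spreads from 155 to 291.

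The levels of several hepatocyte transcripts moved with the apolipoprotein counts over all 6 libraries. By Pearson's r of log2(CPM + 0.5), the 5 genes most like Apoe were Kng1, Mup9, Serpina3k, Mup6 and Itih4 (r from 0.998 to 0.997), all with 0 counts in wild type. The 5 most like the sum of the other 8 genes were Mup15, Ces3a, Serpina1c, Mup8 and Mup7 (r of 1.00 each). These values are descriptions over 6 libraries that share the difference between the genotypes, and single Mup and Serpina1 genes are uncertain because near-identical copies can share reads. Among the 18 tested hepatocyte markers the mutants had 16 calls upward and 0 downward (edgeR), beside 5.99% and 1.06% of all genes tested. The markers were listed with earlier results known. Of the 20 listed, 10 had 0 counts in wild type. Alb, Fgb, Hpx, Serpina1a and Cyp2e1 had 1 count over all of wild type, and Ambp had 2. All 16 called markers passed the count filter only through the mutants, so the number called is not read as a result. The median log2 fold change was 8.42, but fitted values of genes at 0 in wild type depend on the count the model adds. The tested markers without a call were Ttr and Rbp4, the carriers of thyroid hormone and retinol. Ttr had 85, 273 and 133 counts in the mutants, against 90, 0 and 0 in wild type (log2 fold change 3.02, SE 1.55, edgeR adjusted p = 0.431). Rbp4 had 34, 88 and 32 counts, against 13, 0 and 0 (4.10, SE 1.16, edgeR adjusted p = 0.148). Without wild-type library 1 both passed (adjusted p = 0.0249 for Ttr and 0.00784 for Rbp4), and with batch as a replicate block Rbp4 passed too (0.0425). Wild-type library 1, which held these Ttr and Rbp4 counts, had 0 counts of all 8 apolipoprotein genes other than Apoe, and its 21 Apoe counts lay between the 16 and 30 of the other wild-type libraries.

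In raw counts, no other marker list had all 3 mutant libraries above all wild-type libraries. With TMM scaling the erythroid list did, and its raw counts overlapped. Enterocytes, the other source of Apoa1, Apoa4 and Apob, were represented by 7 markers that summed to 5, 16 and 4 counts in the mutants, against 16, 0 and 1 in wild type. Anpep had the most counts of this list, with 3, 7 and 2 in the mutants, against 6, 0 and 1 in wild type. Vil1 had 0, 1 and 0 counts in the mutants, against 9, 0 and 0 in wild type. Fabp2, the intestinal fatty acid binding protein, had 1, 6 and 2 counts in mutant libraries and none in wild type. The brush border enzyme Lct and the retinol carrier Rbp2 had 0 counts in every library. The 5 adipocyte markers summed to 0, 1 and 1 counts in mutant libraries and to 0 in each wild-type library, and Adipoq, Lep, Plin1 and Cfd had 0 counts in every library. The platelet list (6 markers) ran from 50 to 149 counts in the mutants and from 130 to 251 in wild type. The neutrophil list (7 markers) ran from 546 to 1125 and from 1055 to 1305, and the lymphocyte list (8 markers) from 48 to 59 and from 91 to 193. The lymphocyte counts did not overlap, but with TMM scaling they did, at 3.10 to 5.40 CPM in the mutants and 4.78 to 9.94 CPM in wild type. None of the 12 genes tested in the macrophage, platelet, neutrophil and lymphocyte lists was called in the comparison as reported. The part of hepatocyte RNA in the apolipoprotein counts was not tested.

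Several of the 9 genes lie side by side in the genome. Apoa1, Apoc3 and Apoa4 share a cluster of 43292 bases on chromosome 9 with Apoa5, and Apoc4, Apoc1 and Apoe share one of 29732 bases on chromosome 7 with Apoc2. In the first cluster Apoa5, which raises lipoprotein lipase activity, had 15, 23 and 14 counts in the mutants, against 0 in each wild-type library. Apoa5 is not one of the 9 genes, but with 0 counts in wild type it passed the count filter only through the mutants. It was higher by the test (fitted log2 7.43, SE 0.89, edgeR adjusted p = 1.72e-05) and at least 24.8-fold higher by the bound. Nothing about the 9 genes is read from this call. Apoc2, the activator of lipoprotein lipase in the second cluster, had 4, 4 and 1 counts in the mutants, against 1, 0 and 2 in wild type, too few to be tested. The genotypes overlapped for Apoc2, although it lies next to Apoc4, which had 67 counts in the mutants and none in wild type.

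Genes flanking the clusters had few counts in either genotype. Sik3, a kinase gene next to Apoa1, had 3, 3 and 6 counts in the mutants, against 29, 5 and 10 in wild type. Zpr1 and Bud13, beyond Apoa5, had 0, 0 and 3 and 0, 2 and 2 counts in the mutants, against 8, 2 and 6 and 5, 1 and 3 in wild type. Beside the Apoe cluster, Clptm1 had 5, 9 and 9 counts, against 9, 10 and 14, and Tomm40, the direct neighbour of Apoe, which encodes a pore protein of mitochondrial import, had 0, 2 and 3 counts, against 7, 0 and 1. Nectin2 had 3, 3 and 1 counts, against 4, 0 and 0. All of these flanking genes had too few counts to be tested.

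**Figure D4:**
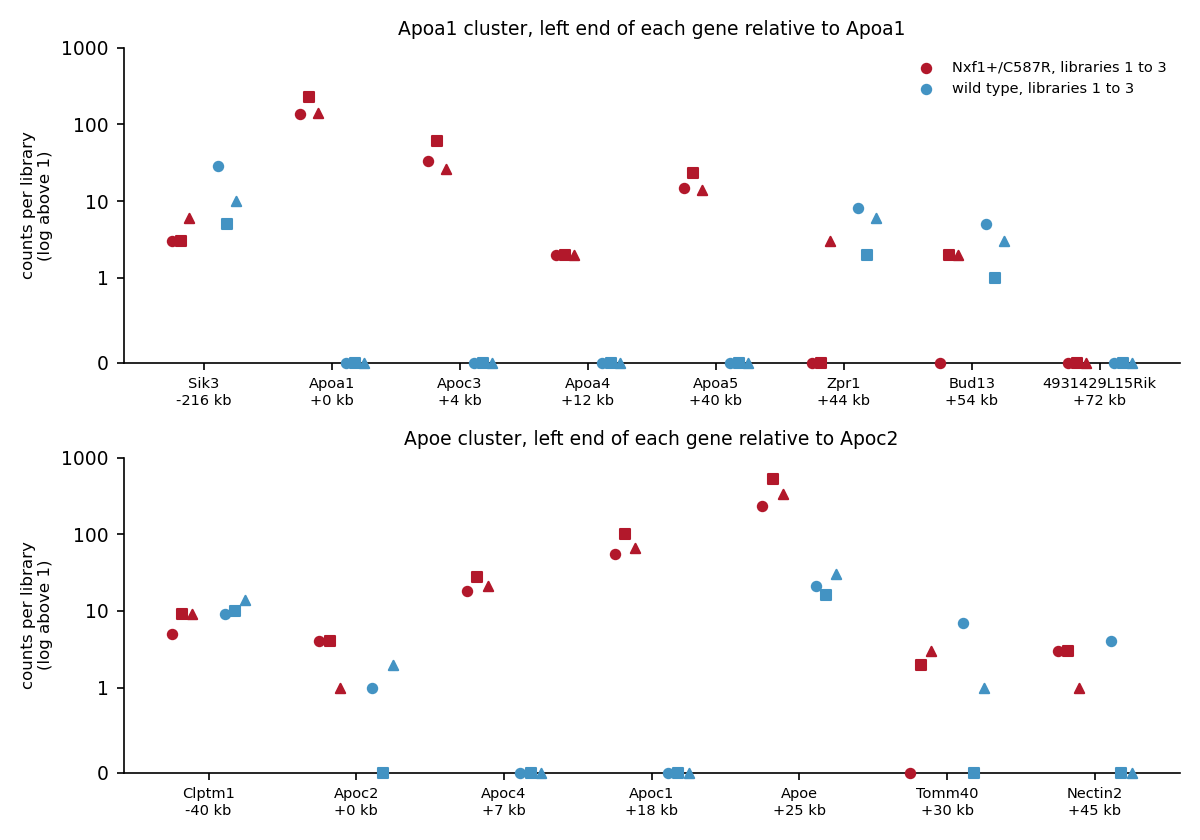
Counts per library of the genes of the Apoa1 cluster (top) and the Apoe cluster (bottom) with their flanking genes, on an axis that is logarithmic above 1. Red symbols are Nxf1+/C587R and blue symbols wild type, and each gene is labelled with the distance of its left end from that of Apoa1 or Apoc2. In the top cluster Apoa1, Apoc3, Apoa4 and Apoa5 are above 0 in the mutants and at 0 in wild type, while Sik3, Zpr1 and Bud13 have counts in wild type.

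The other apolipoprotein genes were listed by family, 27 in all, of which 24 had a count in some library. The list was made with earlier results known, and the 9 genes chosen by their difference were left out of it. Of the 5 tested, 1 was higher (Apoa5) and 0 lower, beside 5.99% and 1.06% of all genes tested. Their median log2 fold change was 0.41 beside −0.06 for all genes. Nothing is read from the number called. Apol11b, of the apolipoprotein L family, had the most counts of any other apolipoprotein gene, with 369, 137 and 459 in the mutants, against 192, 437 and 632 in wild type (log2 fold change 0.11, SE 0.62, edgeR adjusted p = 0.952). Clu (clusterin, also called apolipoprotein J) had 29, 42 and 30 counts, against 34, 19 and 39 (0.69, SE 0.31, adjusted p = 0.228). Apobr, a receptor for apolipoprotein B48 listed with the family by its name, had 28, 20 and 47 counts, against 47, 26 and 28 (0.41, SE 0.31, adjusted p = 0.548). Apol11a had 15, 0 and 15 counts, against 7, 20 and 19 (−0.11, SE 0.81, adjusted p = 0.963). The genotypes overlapped for these 4 genes.

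A further 8 apolipoprotein genes had 0 counts in wild type and some in the mutants but too few to be tested. Another 3 genes had 0 counts throughout. Of the 8, Saa1 had 2 counts in all, and Saa3, Apol9a and Apol9b 3 each. In the other direction, Apol6, Apol7c and Apol7e had 0 counts in the mutants and 1, 3 and 1 in all of wild type. Apol8 had 8 counts over the mutants, against 37. The share of all genes with such patterns was not counted, so nothing is read from these numbers. Named after their values were seen, Apof, a regulator of cholesterol ester transfer in humans, had 12, 21 and 8 counts in the mutants, Saa4, a constitutive serum amyloid A of HDL, 7, 10 and 5, and Apon 3, 14 and 7. Apom, the carrier of sphingosine 1-phosphate on HDL, had 1, 2 and 3 counts. Apod, which is made mainly outside the liver, had 0 counts in every library, as did Saa2 and Apol7b. Without the filter on low counts, Apof, Apon and Saa4 were called higher beside Apoa5.

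The machinery around the apolipoproteins was listed by function in 4 groups of 72 genes together. Of these 15 were tested, 4 were higher and 0 lower, beside 5.99% and 1.06% of all genes tested, with a median log2 fold change of 0.01. Each of the 4 passed the count filter only through the mutants, so their number is not read as a result about the pathway. Of 18 genes for the assembly and secretion of lipoproteins, 6 were tested and 2 were higher. Fabp1, the liver fatty acid binding protein, had 70, 183 and 85 counts in the mutants, against 0 in each wild-type library, at least 161-fold higher (edgeR adjusted p = 0.00549). The call of Fabp1 was lost without mutant library 1 (adjusted p = 0.0836) and without batch 1 (0.0940). Dgat2, an enzyme of triglyceride synthesis, had 11, 14 and 14 counts, against 5, 2 and 1 (log2 fold change 2.74, SE 0.53, adjusted p = 0.00177). P4hb, a subunit of the transfer protein that lipidates apolipoprotein B, had 6, 13 and 15 counts, against 52, 2 and 15. Surf4, a cargo receptor for lipoprotein export, had 14, 9 and 16, against 50, 11 and 18. Neither was called (log2 −0.48 each, edgeR adjusted p = 0.865 for P4hb and 0.694 for Surf4). Wild-type library 1 held most of the wild-type counts of both. Mttp, the other subunit of that transfer protein, had 0, 3 and 3 counts, against 3, 0 and 2, and was not tested.

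Of 13 genes in the list for the remodelling of lipoproteins in plasma, 2 were tested and both were higher, beside 5.99% of all genes tested. Both passed the count filter only through the mutants, so their number is not read as a result about remodelling. Itih4, a plasma glycoprotein for which no action on lipoproteins is claimed here, had 18, 35 and 29 counts in the mutants. It had 0 in each wild-type library (at least 39.1-fold higher, edgeR adjusted p = 1.35e-06). Fabp1 and Itih4 are also on the hepatocyte list. Lcat, which esterifies HDL cholesterol with Apoa1 as its activator, had 4, 15 and 8 counts, against 0, and was not tested.

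Receptors and regulators gave no calls in the comparison as reported. Of 20 receptor and efflux genes, 4 were tested, 0 of them called, and their median log2 fold change was −0.01. Sorl1, a receptor for apolipoprotein E, had 66, 63 and 120 counts in the mutants, against 148, 108 and 100 in wild type (−0.025, SE 0.22, edgeR adjusted p = 0.968), and Cd36, a fatty acid and lipoprotein receptor, 34, 31 and 68, against 55, 110 and 126 (−0.65, SE 0.31, adjusted p = 0.281). The phospholipid transporter Abca7 had 29, 42 and 42 counts, against 58, 41 and 63 (0.01, SE 0.25, adjusted p = 0.984). Of 21 regulators, 3 were tested and 0 called, and the median was −0.19. Srebf1, a regulator of fatty acid synthesis named after its values were seen, had 7, 13 and 10 counts, against 11, 3 and 2 (1.41, SE 0.55, adjusted p = 0.166). It passed without wild-type library 1 (2.42, adjusted p = 0.0329). Srebf2 had 5, 7 and 5 counts, against 13, 10 and 12 (−0.51, SE 0.44, edgeR adjusted p = 0.632). Nr1h2, the broadly expressed oxysterol receptor that controls Apoe in macrophages, had 11, 10 and 12 counts, against 20, 18 and 16 (−0.19, SE 0.35, adjusted p = 0.852). Cebpa, a transcription factor of liver and myeloid cells, had 12, 17 and 9 counts, against 4, 1 and 5, and had too few counts to be tested. It was called higher without mutant library 3 (edgeR adjusted p = 0.00448), without wild-type library 1, 2 or 3 (0.0190, 0.0288 and 0.0143), without batch 3 (0.00563) and with no filter on low counts (0.000474).

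**Figure D5:**
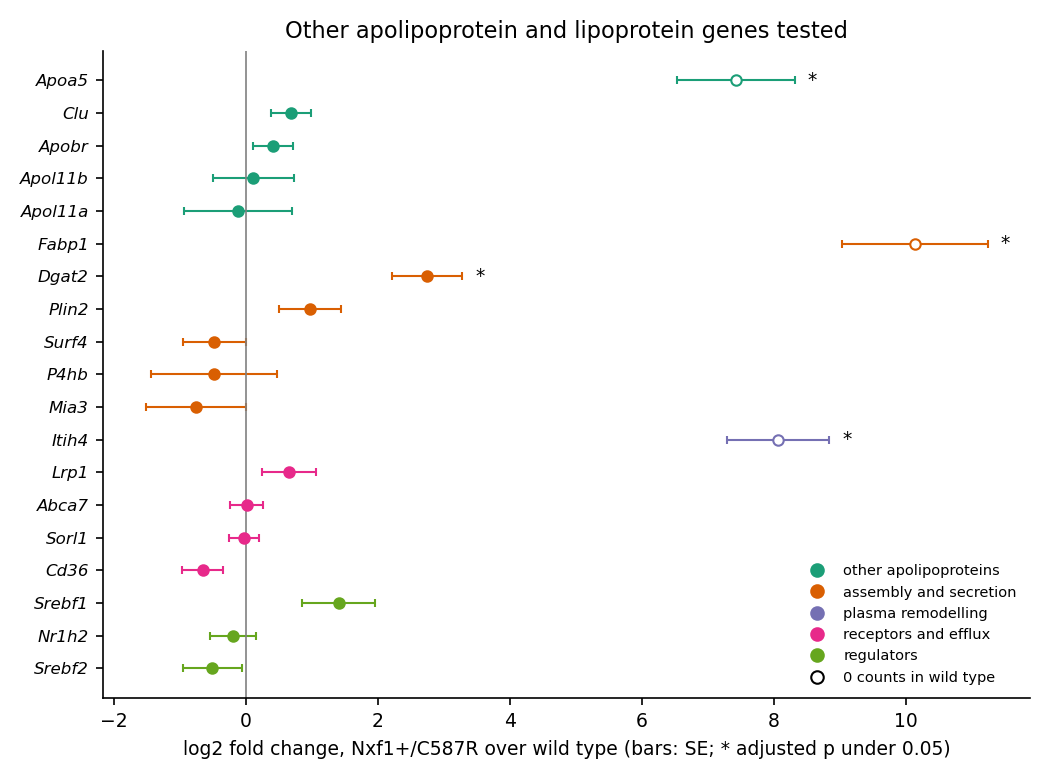
Log2 fold changes (Nxf1+/C587R over wild type, bars SE) of 19 other apolipoprotein and lipoprotein genes that were tested, coloured by group, with an asterisk at an edgeR adjusted p under 0.05. Open circles are genes with 0 counts in wild type, whose fitted values depend on the count the model adds. The 4 genes with an asterisk are Apoa5, Fabp1, Dgat2 and Itih4, and no gene shown was called lower.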

How the data were processed

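Raw read counts per gene were deposited by the authors as whole numbers with no normalization, 1 file per library, with gene lengths and Entrez numbers, per the file headers. Per the submitters' processing notes, CASAVA 1.8.2, Subread and featureCounts were used with build mm10. Their other versions, the annotation and the strand setting are not given in the sources used here. Of 27179 genes, 25293 were given a symbol from RefSeq or GENCODE tables, and genes without a symbol took 1.39% of counts and stayed in the tests.

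The genotypes were compared with edgeR 4.0.16 (R 4.3.3) by its robust quasi-likelihood test, after TMM scaling and the filterByExpr filter set for the 2 groups. P-values were adjusted by Benjamini-Hochberg over the 2823 genes tested, with a threshold of 0.05, so that every adjusted p named here is edgeR's. An SE is the size of the log2 fold change over the root of its F statistic. A count of 0 allows 3 counts, or 0.190 to 0.205 CPM per library. Lower bounds of folds take these 3 counts over the whole group. Intervals are 95%, and like the bounds they cover counting error only, since reads had no molecular identifiers. The 9 genes, the gene lists and the tests were chosen with earlier results of these data known. Of 192 list entries, 190 matched a gene (Hbb-bt and Ahsp did not).

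Genes were named by a rule: the 9 genes, per list the called members (at most 4) and the 3 with most counts, the 5 genes most like them, Nxf1 and the neighbours in both clusters. A few named under it are left unreported here. The labels' batch number pairs the libraries (correlations of same-batch deviations −0.116, −0.0855 and −0.0439). Alternatives were batch as a replicate block, RLE scaling, unscaled totals, removal of globin genes ahead of scaling, DESeq2 1.42.0, limma-voom (limma 3.58.1), all genes with any count, genes averaging 50 counts or more, and leaving out each library or batch. Scripts were tested on simulated data.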

Additional observations from a re-analysis of the deposited data

How the results depend on the processing

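The direction of all 131 fitted values of the 8 tested apolipoprotein genes under the alternatives was the same, toward the mutants. The choice of the genes by this difference fixed that direction. Nothing is read from it or from the numbers of these genes called below. Of these genes, 7 were called higher in the comparison as reported and 3 with a mean count of at least 50, which leaves fewer genes to test, and 7 or 8 without any 1 library. Apoa2 gained a call under 13 alternatives, and Apob lost its call without batch 1 (6 to 8 genes called without a batch). Of the other apolipoprotein genes 1 was called higher as reported, 4 with no filter, 0 with a mean count of at least 50 and 1 to 2 without any 1 library or batch, where the second was Apof. The count lower was 0 as reported and 0 to 1 without any 1 library or batch, the 1 being Apol8 without wild-type library 1 (log2 −2.19, edgeR adjusted p = 0.0151) or batch 1. Of the pathway genes 4 were higher as reported, 10 with no filter, 1 with a mean count of at least 50 and 3 to 6 without any 1 library. The count lower was 0 to 1 without any 1 library, the 1 being Cd36 without wild-type library 1 (log2 −0.95, edgeR adjusted p = 0.0248). Srebf1 was called higher without wild-type library 1 or batch 1. Over all genes 169 were higher and 30 lower as reported. With no filter these counts were 382 and 82, and with a mean count of at least 50 they were 66 and 49. The count lower was 19 with RLE scaling, 245 with unscaled totals (115 higher), 11 with DESeq2 and 60 with the replicate block (194 higher). Without any 1 library it ran from 8 to 77 and without any 1 batch from 3 to 36, its highest without wild-type library 1. The replicate block called 8 apolipoprotein genes, Apoa2 being the addition, and changed no other call of a gene named, Rbp4 excepted. Of the 18 or 19 hepatocyte markers tested, 12 to 19 were higher and 0 lower without any 1 library or batch. The lowest count was that without batch 1, where 145 of all 2941 genes tested were higher. The markers were listed with earlier results known, so these numbers are not read as a result either. The share of Apoe in the mutant counts was 26.2% per kilobase, in place of 39.2% of counts, and 37.0% to 40.9% without 1 mutant library. Against the hepatocyte list in place of Alb, Apoe stood at 178 and the other 8 genes at 278 per 1000 counts. The causes of these changes were not tested. Low counts limit the precision of Apoa4, Apoc4 and Apob most.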
